A study of Homo sapiens with 12 samples.

Results

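Nuclear pore and nuclear transport genes were followed through a block of transcription in the Ewing sarcoma cell line A673, which was established from a tumour and is widely used. The genes were taken by symbol alone: numbered nucleoporins (NUP followed by a number), importins alpha and beta (KPNA, KPNB), further import receptors (IPO, TNPO), exportins (XPO1 to XPO7 and XPOT), and RAN, RANBP1, RANBP2, RANGAP1, RCC1, TPR and CSE1L. The rule used no measured value. It found 51 of the 26334 gene symbols in the count table, and 49 of them passed a filter of at least 10 counts on average over the libraries, as did 12032 genes in all. The other two were near 0: KPNA7, an importin alpha, had 1 count in a single library, and NUP210L, a relative of NUP210, had between 0 and 3 counts per library.

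The cells, labelled shA673-1c (Ewing sarcoma), received 5 µM actinomycin D for 0, 1, 2 or 4 h, with 3 biological replicates per time and 12 poly(A) RNA libraries. All 12 sample titles also carry the tag CTL. Blasticidin (20 µg/ml) and zeocyn (200 µg/ml) were in the medium of all 4 groups, so no group was without them, and the labels do not say what the prefix and suffix of the line's name mean. It is a single cultured line, with no second line and no vehicle-treated time course among the samples. Actinomycin D intercalates into DNA and stops RNA synthesis, so that later samples hold what is left of transcripts made before.

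The nuclear pore is a large ring of nucleoporins set in the nuclear envelope. A rigid scaffold (the Y complex and the inner ring) holds flexible nucleoporins rich in phenylalanine-glycine (FG) repeats, which fill the channel and bind passing receptors. Further proteins form the basket on the nuclear side and filaments on the cytoplasmic side. Importins carry cargo in and exportins carry it out. The small GTPase RAN, loaded with GTP in the nucleus by RCC1 and made to hydrolyse it in the cytoplasm by RANGAP1, gives the traffic its direction.

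Library totals ranged from 9147018 to 11194705 counts, and the genes of the rule took 1.07% to 1.15% of them. Mean counts per library of the 49 tested genes ran from 118.2 (KPNA5) to 8464 (RAN), with a median of 1919, so single-read noise was small for most. Of 8 Ewing sarcoma markers, CD99 was listed at 0 in every library and the other 7 were detected, CCND1 at 15630 to 20886 counts. The endothelial and epithelial markers reached at most 6 counts, and the leukocyte markers PTPRC and CD3E at most 3 and 0, with CD68 at 95 to 144. The summed level of the fibroblast list was 3800 to 4071 CPM (counts scaled to a common library size) at 0 h. It rose to between 5437 and 5712 CPM at 4 h, through COL1A1 and COL3A1. These sums were scaled by library totals alone, without TMM factors. The CPM values given for genes below are TMM-scaled, so the sums are not on the same scale. The remaining gene of the list, DCN, stayed at 4 to 13 counts. The part of the fibroblast list in the results was not tested.

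Most pore and transport transcripts kept close to their starting share of the RNA pool. The steepest falls of the 49 were those of NUP153, NUP62 and NUP50, which are FG nucleoporins. Change was expressed as a slope in log2 units per hour of actinomycin D, fitted by edgeR across all 12 libraries on TMM-scaled counts, with Benjamini-Hochberg adjusted p below 0.05 as the threshold. Since no spike-in RNA was counted, a slope is relative to the rest of the RNA, and less RNA per cell and fewer cells cannot be told apart from the counts. Of the 49 genes, 9 had negative slopes past the threshold (18.4%), beside 32.1% of all tested genes. A further 18 had positive slopes past it (36.7%), beside 30.7% of all tested genes, and 22 did not pass. All 18 positive calls were lost, and 42 genes (85.7%) were called negative, when the libraries were scaled to GAPDH plus ACTB, which called 64.2% of all tested genes negative and 0.931% positive. That scaling moved the median slope of all genes by −0.14, so "rose" below means a gain relative to the TMM-scaled pool.

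The median slope of the 49 genes was 0.020 log2 per hour, with the middle 50% between −0.031 and 0.053. Over all tested genes the median was 0.0093 and the middle 50% lay between −0.13 and 0.089, a width of 0.22 against 0.083 for the pore and transport genes. Relative to the median of all genes, 6 of the 49 (12.2%) lay at least 0.1 log2 per hour below it, beside 30.5% of all genes. At least 0.1 above it lay 4 (8.16%), beside 18.3%. At 4 h, 35 of the 49 (71.4%) were within 1.25-fold of 0 h in either direction, beside 41.6% of all tested genes. These shares are descriptions with no test of the set.

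The direction was shared by the replicates. This is a description without separate support, because the genes were called from these same libraries. The share over all called genes was not counted. Each of the 9 negative genes fell in all 3 replicates, and each of their 0 h libraries lay above each of their 4 h libraries. Each of the 18 positive genes rose in all 3 replicates on the TMM scale, and for 17 of them each 0 h library lay below each 4 h library. NUP93 was the exception.

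**Figure D1:**
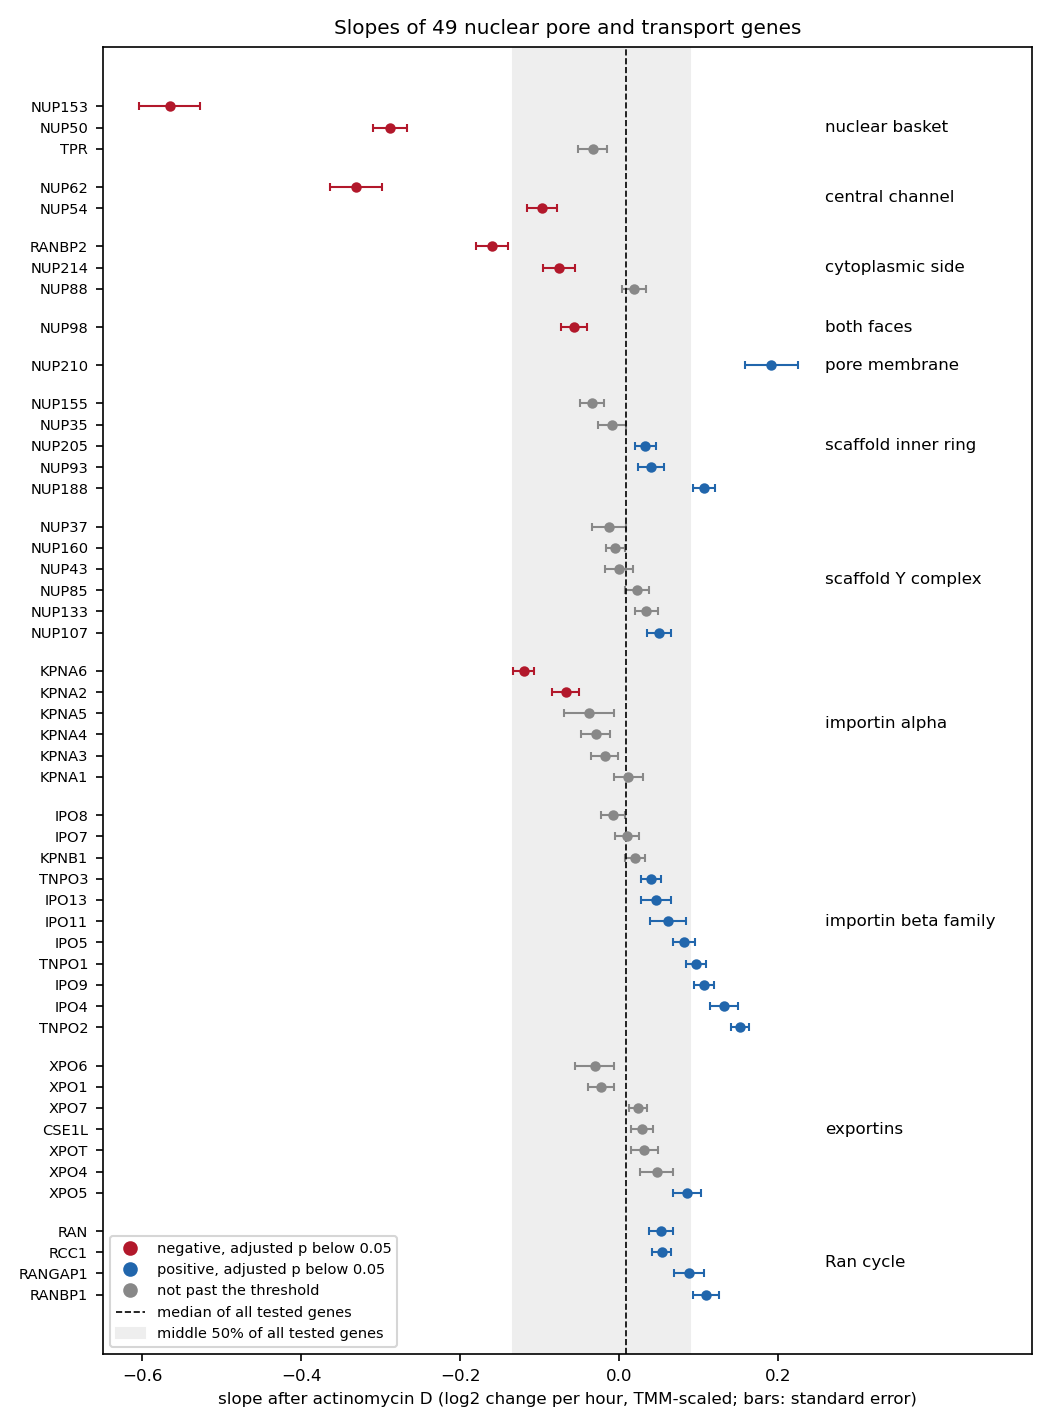
Slopes of the 49 tested genes in log2 change per hour (x axis), grouped by role, with bars for the standard error, a dashed line at the median of all tested genes and a grey band over their middle 50%. On the TMM scale NUP153 lies farthest left at −0.57 and NUP210 farthest right at 0.19, and most genes sit inside the grey band, and with GAPDH plus ACTB as scaling all 18 positive calls (blue) are lost.

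The nuclear basket held the steepest fall. NUP153, which anchors the basket to the pore, stood at 306, 290 and 263 CPM in the 3 libraries at 0 h and at 254, 257 and 223 at 1 h. It then dropped to 157, 162 and 128 at 2 h and to 74.8, 65.9 and 49.1 at 4 h. Each later group lay wholly below the group before it, so that none overlapped. The mean went from 286 ± 21.6 to 63.3 ± 13.0 CPM (SD, n = 3), which is 22.1% of the start. The slope was −0.57 log2 per hour (SE 0.038, edgeR adjusted p = 5.87e-09), and 3.36% of all tested genes had a lower one. On this scale it corresponds to halving in 1.77 h (1.66 to 1.90 h at 1 SE either way).

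NUP50, a mobile basket protein that helps to release imported cargo, fell in the same 3 replicates. Its libraries held 130, 130 and 119 CPM at 0 h, 114, 124 and 103 at 1 h, 90.3, 94.8 and 85.8 at 2 h, and 60.2, 61.5 and 52.5 at 4 h. Only the 0 and 1 h groups overlapped. The slope was −0.29 (SE 0.021, adjusted p = 1.25e-08), and the geometric mean at 4 h was 45.8% of that at 0 h. TPR, the long coiled-coil protein that forms the basket's struts, had a slope of −0.033 (SE 0.019, adjusted p = 0.132). Its mean was 310 ± 18.4 CPM at 0 h, 337 ± 10.6 at 2 h and 286 ± 6.51 at 4 h. The call changed with the libraries used: without 0 h replicate 2 the slope of TPR was −0.048 with an adjusted p of 0.0248.

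The 3′ untranslated region (UTR) of NUP153 is shown at 4 short stretches, because it belongs to the gene with the steepest fall and motifs there are a common place to look in decay experiments. The gene lies on the minus strand of chromosome 6 (chr6:17615035-17706925, GRCh38, GENCODE version 44). Its canonical transcript has 22 exons and a 3′ UTR of 1060 bases, and the capitals mark the Pumilio-type motif TGTANATA, where N is any base, or the pentamer ATTTA, the core of AU-rich elements. All stretches are in the 3′ UTR, written 5′ to 3′ as in the transcript with T for U.
NUP153 TGTANATA, chr6:17615420-17615444: gaaacttgTGTAAATAcaattttgt
NUP153 ATTTA, chr6:17615504-17615528: ttcactctccATTTAataattatat
NUP153 ATTTA, chr6:17615227-17615251: ttaaagttgaATTTAttggcttttc
NUP153 ATTTA, chr6:17615150-17615174: atatttttatATTTActaaaatgga

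Both central channel nucleoporins fell. NUP62, an FG nucleoporin of the channel, held 157, 146 and 162 CPM at 0 h and 155, 162 and 143 at 1 h. The libraries at 2 h held 126, 123 and 111, and those at 4 h 75.0, 61.0 and 57.9. The 0 and 1 h groups thus overlapped, and the fall came after 1 h: of the geometric mean at 0 h, 98.8% was left at 1 h, 77.4% at 2 h and 41.5% at 4 h. The slope was −0.33 (SE 0.033, adjusted p = 2.63e-07). NUP54, its partner in the channel, had a slope of −0.097 (SE 0.019, adjusted p = 0.000355), from 44.8 ± 1.51 CPM at 0 h to 34.3 ± 0.326 at 4 h. Reads of IL4I1, which overlaps NUP62 on the same strand, reached at most 4 counts. Reads of ATF5, which overlaps NUP62 on the opposite strand, were not examined. Nor were those of other genes on the opposite strand, such as NUP153-AS1 at NUP153, SH3GLB2 at NUP188 and REC8 at IPO4. NUP58, the remaining channel protein, is in the table as NUPL1 and was therefore outside the symbol rule, as was NUP42 of the cytoplasmic side (NUPL2).

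On the cytoplasmic side, 2 of 3 genes fell. RANBP2 (also called NUP358), the giant filament protein that binds RAN and acts as a SUMO ligase, held 240, 212 and 227 CPM at 0 h and 204, 215 and 194 at 1 h. At 2 h it held 198, 206 and 192, and at 4 h 148, 156 and 127. Every library at 4 h lay below every earlier one. Its slope was −0.16 (SE 0.020, adjusted p = 3.69e-06), and reads at its close paralogs, the RGPD genes, reached at most 16 counts in any library. NUP214, a docking site for export complexes, had a slope of −0.076 (SE 0.020, adjusted p = 0.00351). Its partner NUP88 had a slope of 0.019 (SE 0.015, adjusted p = 0.293).

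NUP98 is found on both faces of the pore, and its long transcript also encodes NUP96, a Y complex subunit cut from the same precursor. It held 125, 123 and 118 CPM at 0 h and 110, 110 and 92.9 at 4 h. The groups did not overlap, although the gap between them was narrow. The slope was −0.057 (SE 0.017, adjusted p = 0.00786), and it was −0.036 with an adjusted p of 0.0525 without 4 h replicate 3.

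**Figure D2:**
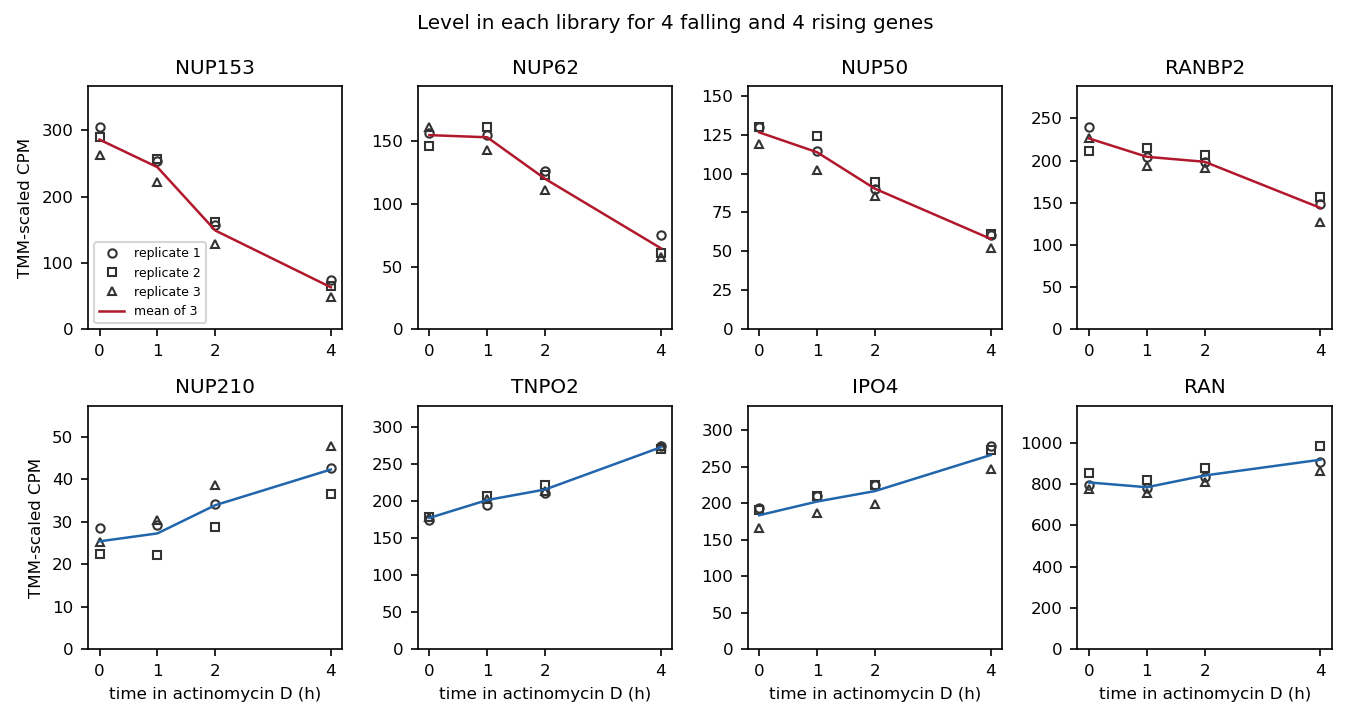
TMM-scaled CPM (y axis, from 0) against hours in actinomycin D (x axis) for 4 genes called negative (top) and 4 called positive on the TMM scale (bottom, calls that are lost with GAPDH plus ACTB), with a symbol for each of the 3 replicates and a line through their mean. NUP153 goes from a mean of 286 to 63.3, NUP62 stays near its start until 1 h, and TNPO2 goes from 178 to 273.

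Of the 11 tested scaffold genes within the symbol rule, none passed the threshold with a negative slope and 4 passed with a positive slope on the TMM scale, of which 0 kept a positive call with GAPDH plus ACTB. In the Y complex, the outer ring of the scaffold, 1 of the 6 genes in the rule rose: NUP107, with a slope of 0.050 (SE 0.015, adjusted p = 0.00632). Without replicate 1 the slope of NUP107 was 0.046 with an adjusted p of 0.0666. With library totals it was 0.0113 with an adjusted p of 0.51. The lowest slope of the 6 was −0.012 (SE 0.021, adjusted p = 0.632) at NUP37, and NUP160, NUP43, NUP85 and NUP133 lay between −0.0047 and 0.034. Of these NUP133 passed with the replicate number as a block (adjusted p = 0.0147). Y complex genes outside the rule did pass: AHCTF1 (slope −0.27, adjusted p = 1.44e-07) and SEH1L (−0.059, adjusted p = 0.0018) fell, and SEC13, which also serves in vesicle coats, rose on the TMM scale (0.078, adjusted p = 0.00012).

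In the inner ring, 3 of 5 rose. NUP188, a large structural subunit, went from 324 ± 20.5 to 432 ± 23.8 CPM with a slope of 0.11 (SE 0.014, adjusted p = 5.94e-06). NUP93 and NUP205, which bind each other in the ring, had slopes of 0.040 (adjusted p = 0.0406) and 0.033 (adjusted p = 0.0406). Over the 24 alternative fits these were called positive in 8 (NUP93) and 7 (NUP205). At 4 h against 0 h their adjusted p was 0.0692 and 0.0794. NUP155 had the lowest slope of the inner ring, −0.034 (SE 0.015, adjusted p = 0.0586). It passed with the block (adjusted p = 0.031), and at 4 h against 0 h it passed without the block (log2 difference −0.15, adjusted p = 0.0395). NUP35 had a slope of −0.0085.

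NUP210, which spans the nuclear membrane at the pore, had the highest slope of the 49 genes at 0.19 (SE 0.033, adjusted p = 8.69e-05). It was also among the scarcest, at 28.6, 22.3 and 25.2 CPM at 0 h and 29.2, 22.2 and 30.3 at 1 h. At 2 h its libraries held 34.1, 28.8 and 38.6, and at 4 h 42.6, 36.5 and 47.7. All 4 h libraries were above all 0 h libraries, while neighbouring times overlapped. With GAPDH plus ACTB as scaling its slope was 0.055 with an adjusted p of 0.216.

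FG content was set beside the slopes after both were known, so the grouping is a description without a test. FG dipeptides were counted in the translated canonical transcripts. Of the 49 genes, 8 had at least 5: NUP214 (44), NUP98 (40), NUP153 (29), RANBP2 (22), NUP54 (9), NUP62 (6), NUP50 (5) and NUP210 (5). The first 7 of these are 7 of the 9 genes called negative, and NUP210 was called positive on the TMM scale. Of the 41 genes under 5, 2 were called negative, KPNA2 and KPNA6, and the scaffold genes NUP205, NUP188 and NUP107 lay just under the line at 4. The median slope was −0.13 for the 8 and 0.029 for the 41. NUP214 and NUP98, with the most dipeptides, had shallower slopes than NUP50 with 5. Of all tested genes, 10.3% had a lower slope than NUP62, 12.4% than NUP50, 22.2% than RANBP2, 29.5% than NUP54, 32.6% than NUP214 and 35.4% than NUP98. Outside the symbol rule, NXT1 and AKIRIN2, with 0 and 1 dipeptides, had slopes of −0.63 and −0.55, so a steep fall was not particular to FG nucleoporins. Across the 49 genes the number of dipeptides and slope had a Pearson r of −0.46 and a Spearman rho of −0.23, and across 11380 tested genes 0.03 and 0.01. Over all tested genes with at least 5 FG dipeptides, 551 genes of every function, 28.3% were called negative and the median slope was 0.027.

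**Figure D3:**
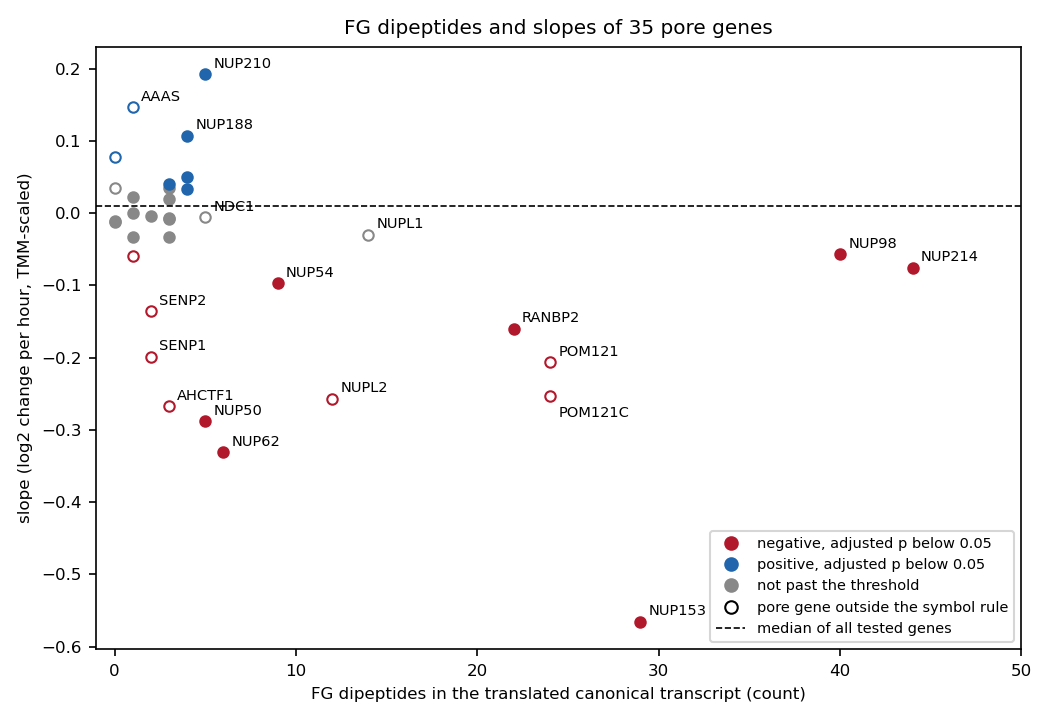
FG dipeptides in the translated canonical transcript (x axis, count) against slope in log2 change per hour (y axis) for 35 pore genes, with filled circles for genes of the symbol rule, open circles for other pore genes and a dashed line at the median of all tested genes. Of the 13 genes with at least 5 dipeptides, 10 have negative slopes past the threshold, beside 4 of the 22 genes under 5. Of the 13, NUP210 has a positive one, a call that is lost with GAPDH plus ACTB, and NUPL1 and NDC1 did not pass.

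Among the importins alpha, which bind the classical nuclear localization signal, 2 of 6 fell and none rose. KPNA6 went from 176 ± 4.72 CPM at 0 h to 126 ± 2.26 at 4 h, with a slope of −0.12 (SE 0.014, adjusted p = 1.10e-06). KPNA2, by far the most abundant of them per kilobase and a gene of dividing cells, went from 594 ± 63.3 to 494 ± 17.4 CPM, with a slope of −0.067 (SE 0.017, adjusted p = 0.00237). KPNA3, KPNA4 and KPNA5 had slopes of −0.018, −0.029 and −0.037, none past the threshold, although KPNA4 passed with the replicate block (adjusted p = 0.0199). KPNA1 had the highest slope of the family, 0.012 (SE 0.018, adjusted p = 0.585).

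The importin beta family holds the receptors that pass through the channel themselves. Of 11 genes, 8 rose on the TMM scale, 3 did not pass and none fell, and 0 of the 8 kept a positive call with GAPDH plus ACTB. TNPO2, a transportin that imports RNA-binding proteins, had the highest slope at 0.15 (SE 0.011, adjusted p = 1.52e-08). Its libraries held 175, 179 and 179 CPM at 0 h, 195, 207 and 203 at 1 h, 212, 222 and 214 at 2 h, and 274, 271 and 274 at 4 h. The 1 and 2 h groups were separate from the 0 h group as well, with every value above it. TNPO2 with GAPDH plus ACTB had a slope of 0.014 (adjusted p = 0.56).

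IPO4, which imports histones, followed with a slope of 0.13 (SE 0.017, adjusted p = 5.69e-06). It held 193, 191 and 166 CPM at 0 h, 210, 210 and 186 at 1 h, 225, 225 and 199 at 2 h, and 278, 273 and 247 at 4 h. Replicate 3 was the lowest at each time, and within each replicate the level at 4 h was the highest. IPO9, a further histone importer, TNPO1, which shares its cargo class with TNPO2, and IPO5, an importer of ribosomal proteins, had slopes of 0.11, 0.097 and 0.082. IPO11, IPO13 and TNPO3, the importer of serine-arginine-rich splicing factors, had 0.061, 0.047 and 0.040. IPO13 was called positive in 7 of the 24 alternative fits, and with DESeq2 size factors its adjusted p was 0.051. KPNB1, the main importin beta, had a slope of 0.020 (SE 0.012, adjusted p = 0.165) and passed with the replicate block (adjusted p = 0.0392). IPO8 had the lowest slope of the family, −0.0073 (SE 0.015, adjusted p = 0.689).

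Of the 7 exportins, 1 rose and none fell. XPO5, which exports microRNA precursors, had a slope of 0.086 (SE 0.017, adjusted p = 0.000387), and −0.052 with GAPDH plus ACTB. XPO1, the exporter of proteins with leucine-rich export signals, had 525 ± 38.0 CPM at 0 h and 489 ± 25.6 at 4 h. Its slope was −0.023 (SE 0.017, adjusted p = 0.247), and it passed with the replicate block (adjusted p = 0.0367). CSE1L, which returns importin alpha to the cytoplasm, had a slope of 0.029 (SE 0.014, adjusted p = 0.0781), again past the threshold with the block (adjusted p = 0.0156). XPO6, the exporter of actin, had the lowest slope of the exportins, −0.031 (SE 0.024, adjusted p = 0.285), and an adjusted p of 0.0117 with the block. XPO4, XPO7 and XPOT, the tRNA exporter, had slopes of 0.048, 0.024 and 0.032, and these passed with the block.

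All 4 genes of the RAN cycle rose on the TMM scale, and with GAPDH plus ACTB all 4 slopes were negative. With library totals, RAN (slope 0.0134, adjusted p = 0.364) and RCC1 (0.0145, adjusted p = 0.309) did not pass. RANBP1 (0.0708, adjusted p = 0.00192) and RANGAP1 (0.0485, adjusted p = 0.0183) stayed positive and past the threshold there. RAN itself held 795, 855 and 774 CPM at 0 h and 780, 819 and 756 at 1 h. It held 836, 880 and 810 at 2 h and 909, 983 and 862 at 4 h. Each 4 h library was above each 0 h library, by a small margin against the spread within a time. Its slope was 0.053 (SE 0.015, adjusted p = 0.00612). RANBP1, which helps RANGAP1 to discharge RAN, had the highest slope at 0.11 (SE 0.016, adjusted p = 2.06e-05). RANGAP1 had 0.088 (SE 0.019, adjusted p = 0.000582) and RCC1 0.054 (SE 0.012, adjusted p = 0.000754). The reads of RCC1 may include some of SNHG3, a noncoding gene that overlaps it on the same strand with 352 to 972 counts, and RAN has 9 named pseudogenes.

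At 0 h the levels per kilobase of canonical transcript spanned a wide range. RAN stood at 327 ± 16.8 CPM per kb, KPNA2 at 300.5 ± 32.0 and RANBP1 at 193 ± 10.9. RAN and KPNA2 did not differ beyond their spread. CSE1L followed at 146 ± 6.37, XPO1 at 105 ± 7.61, IPO5 at 95.8 ± 3.77 and KPNB1 at 86.2 ± 3.39. NUP153 and NUP62 lay near each other at 47.5 ± 3.59 and 46.0 ± 2.36, and the lowest levels were those of NUP210 (3.52 ± 0.439) and KPNA5 (1.15 ± 0.091). Across the 49 genes, level per kb and slope had a Pearson r of 0.08 and a Spearman rho of 0.25, as a description over genes that share the 12 libraries.

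The comparison of 4 h with 0 h, with time as 4 groups, asked for the net change. It called 10 genes lower (20.4%) and 16 higher (32.7%) on the TMM scale, beside 31.6% and 28.7% of all tested genes, and with GAPDH plus ACTB it called 42 lower and 0 higher, beside 63.3% and 0.923% of all tested genes. The largest log2 differences on the TMM scale were −2.18 (SE 0.13) at NUP153, −1.26 (SE 0.091) at NUP62 and −1.12 (SE 0.082) at NUP50, and 0.73 (SE 0.14) at NUP210. RANBP2 had −0.65 (SE 0.076). TPR had −0.11 (SE 0.057, adjusted p = 0.0963) and passed with the block (adjusted p = 0.00841).

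At 1 h against 0 h, which uses the same 0 h libraries, no gene of the 49 passed in edgeR, beside 2.24% of all tested genes called lower and 0.349% called higher. At an unadjusted p below 0.05 there was 1, and DESeq2 called 0 lower and 1 higher. The replicate numbers paired the samples. With the number as a block, for which the share of all tested genes was not counted, 3 were lower and 3 higher. The lower ones were NUP153 (log2 difference −0.23, adjusted p = 0.000362), NUP50 (−0.16, adjusted p = 0.0123) and RANBP2 (−0.15, adjusted p = 0.0259). The higher ones were TNPO2 (0.18, adjusted p = 0.000381), IPO4 (0.14, adjusted p = 0.00403) and RANGAP1 (0.11, adjusted p = 0.0185).

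A squared time term asked whether the falls steepened or flattened. It called 0 of the 49 genes in either direction, beside 0.54% of all tested genes with a negative and 0.972% with a positive term, while 4 genes had an unadjusted p below 0.05 and DESeq2 called 2 negative. With the replicate block 3 passed with a negative term, meaning a late fall: NUP62 (−0.076, adjusted p = 0.00228), TPR (−0.042, adjusted p = 0.00449) and NUP153 (−0.060, adjusted p = 0.0276). The share of all tested genes was not counted for the blocked fit. At 1 h the geometric mean of NUP153 was 85.5% of that at 0 h and the geometric mean of NUP62 98.8%, and the difference between these genes was not tested.

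**Figure D4:**
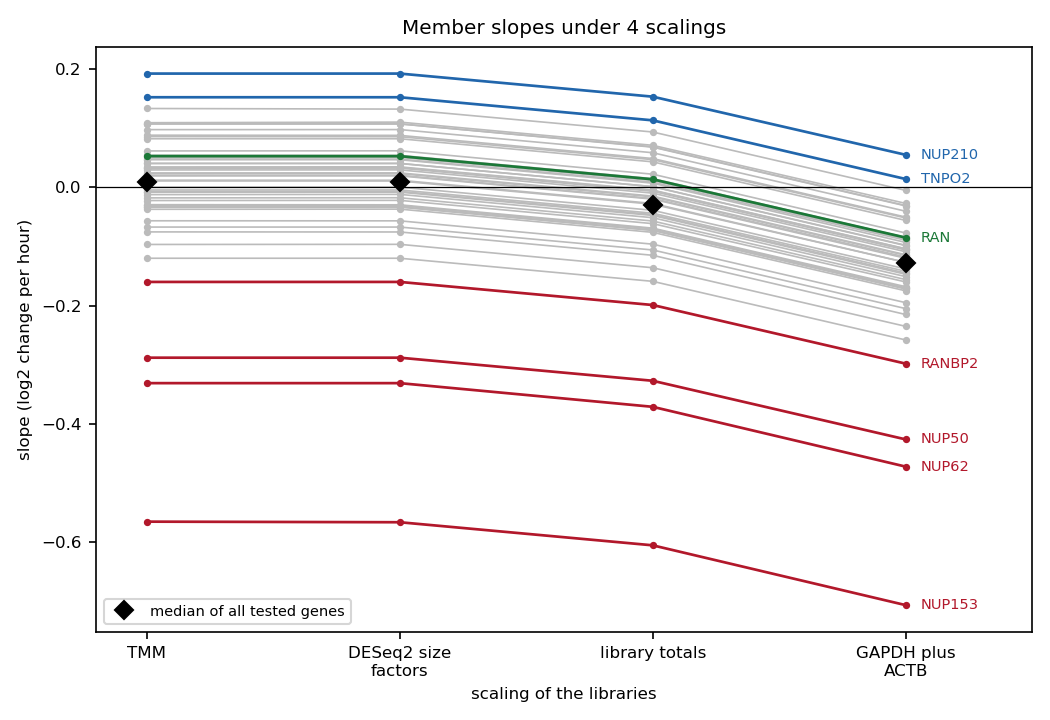
Slope in log2 change per hour (y axis) of each of the 49 genes under 4 scalings of the libraries (x axis), with a line per gene and diamonds at the median of all tested genes. The lines run in parallel: the median of all genes moves from 0.0093 with TMM to −0.13 with GAPDH plus ACTB, where the slope of RAN turns negative and NUP153, NUP62, NUP50 and RANBP2 stay lowest.

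GAPDH and ACTB themselves had slopes of 0.15 (SE 0.013, adjusted p = 6.18e-08) and 0.12 (SE 0.025, adjusted p = 0.00042) on the TMM scale, so scaling to them lowers all slopes by a like amount. Measured from the median of all genes, the slope of NUP153 was −0.57 log2 per hour with TMM and −0.58 with GAPDH plus ACTB, and that of NUP62 was −0.34 with both. NUP210 lay 0.18 above the median with either scaling, and TNPO2 0.14.

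Motifs in the 3′ UTR were searched on the transcript strand in the canonical transcripts, with overlapping matches counted: ATTTA, the longer forms TATTTAT and TTATTTATT that contain it, and TGTANATA. Among the 49 genes, 40 had at least 1 ATTTA, beside 74.9% of all tested genes with a 3′ UTR, and 6 of the 9 negative and 15 of the 18 positive genes (TMM scale) had it. TATTTAT was in 18 (37.4% of all), with 1 of the 9 and 7 of the 18. TTATTTATT was in 5 (10.1% of all), with 1 of the 9 and 1 of the 18, and TGTANATA in 14 (31.4% of all), with 2 of the 9 and 5 of the 18. Lengths differ between UTRs, and the median number of ATTTA per kilobase was 1.19 in the 9 genes and 1.52 in the 18. It was 2.53 in the 22 genes that did not pass and 1.78 in all tested genes. Across the 49 genes ATTTA per kilobase and slope had a Pearson r of −0.05 and a Spearman rho of −0.11.

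The same motifs stood in genes that fell and in genes that rose on the TMM scale, as the following sites show, with the motif in capitals. KPNA6 and KPNA2 fell, while NUP107 and RAN rose, both with negative slopes under GAPDH plus ACTB. All are in 3′ UTRs on the plus strand of GRCh38.
KPNA6 TTATTTATT, chr1:32173659-32173683: gcaaaataTTATTTATTtagcccag
NUP107 TTATTTATT, chr12:68745075-68745099: tacctcatTTATTTATTtaatttag
KPNA2 TGTANATA, chr17:68046729-68046753: gttccaacTGTACATAcatactgta
KPNA2 TGTANATA, chr17:68046808-68046832: cagcatccTGTAAATAaacattcaa
RAN TGTANATA, chr12:130876494-130876518: ttacatggTGTAAATAttagtgcag
RAN TGTANATA, chr12:130876614-130876638: atgtggttTGTACATAtcaaataga
The KPNA6 transcript has a 3′ UTR of 5669 bases and that of KPNA2 only 258, which holds both sites. NUP62 and NUP50, the next lowest after NUP153, had 1 and 4 ATTTA and no TGTANATA or TATTTAT, and NUP98 had none of the 4 motifs. A match or its lack says nothing about binding.

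Gene structure was set beside the slopes in the same way. The 9 negative genes had a median of 3.65 exons per kilobase of transcript, the 18 positive ones (TMM scale) 5.12 and the 22 others 4.52, against 3.04 over all tested genes with a matched transcript. NUP62 had 3 exons (0.893 per kb) and NUP50 had 8 (1.55 per kb), while NUP188 had 44 (7.73 per kb) and IPO4 30 (8.58 per kb). IPO9, which rose on the TMM scale with 2.10 exons per kb, and NUP54, which fell with 5.34, went against that order. Across the 49 genes exons per kilobase and slope had a Pearson r of 0.38 and a Spearman rho of 0.33, and across 11785 tested genes 0.39 and 0.45. The length of the 3′ UTR and slope had an r of 0.03 and a rho of −0.04 across the 49.

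Genes of the same pathway outside the symbol rule were counted from a list of 47, of which 46 were in the table and 43 were tested. Of the 43, 16 fell, 16 rose on the TMM scale and 11 did not pass. Of all tested genes, 32.1% were called negative and 30.7% positive, and these shares also stand beside the smaller lists below. Among 14 other genes of the pore, including its SUMO proteases SENP1 and SENP2, 7 fell and 2 rose. AHCTF1 (ELYS), which starts pore assembly on chromatin, had the lowest slope at −0.27 (SE 0.025, adjusted p = 1.44e-07), and AAAS (ALADIN), a nucleoporin held by NDC1, the highest at 0.15 (SE 0.022, adjusted p = 2.16e-05; 0.0076 with GAPDH plus ACTB). Of the 5 in this list with at least 5 FG dipeptides, POM121 (slope −0.21), POM121C (−0.25) and NUPL2 (−0.26) fell. NUPL1 (−0.030, adjusted p = 0.111) and NDC1 (−0.0060, adjusted p = 0.844) did not pass. Of the 9 in this list under 5 FG dipeptides, 4 fell and 2 rose on the TMM scale. POM121 and POM121C are close copies, and how the authors assigned reads shared by them is not given in the sources used here.

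Among 11 other transport receptors and RAN factors, 5 fell and 3 rose on the TMM scale. AKIRIN2, an adaptor for the import of proteasomes, had the lowest slope, −0.55 (SE 0.049, adjusted p = 8.20e-08). NUTF2, which returns RAN to the nucleus, had the highest, 0.12 (SE 0.014, adjusted p = 8.10e-07), and −0.015 with GAPDH plus ACTB. Among 18 mRNA export genes, 4 fell and 11 rose on the TMM scale. NXT1, the small partner of the export receptor NXF1, had the lowest slope, −0.63 (SE 0.049, adjusted p = 2.02e-08), with means of 20.7 ± 0.904 CPM at 0 h and 3.47 ± 0.979 at 4 h. THOC7, a THO complex subunit, had the highest, 0.12 (SE 0.023, adjusted p = 0.000321), and −0.022 with GAPDH plus ACTB.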

How the data were processed

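For the 12 poly(A) libraries the deposited values were raw counts, whole numbers of reads for each gene symbol. The submitters' processing notes name hg19, STAR and FastQC. The counter, its annotation and its strand setting are not given in the sources used here, so reads of overlapping or antisense genes and of near-identical copies are uncertain. All columns matched a sample title. Time and replicate came from the labels.

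Counts were analysed in R 4.3.3 with edgeR 4.0.16 (TMM factors, a mean of at least 10 counts, glmQLFit and glmQLFTest). Time entered as hours (slope), as 4 groups (1 h and 4 h against 0 h), or with a squared term, with Benjamini-Hochberg adjustment over all 12032 tested genes and a threshold of 0.05. Standard errors came from the F statistic, and the biological coefficient of variation was 0.0905. P-values measure the spread between the labelled biological replicates. Replicates of a time differed by more than counting noise (chi-square per degree of freedom 3.2 to 8.65 over 12 pairs), so none was counted as a repeat deposit.

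Replicate numbers paired the samples: deviations from the time means correlated at 0.323 to 0.633 between libraries of the same number (18 pairs) and at −0.419 to 0.0902 between different numbers (36 pairs). The numbers come from the labels. The main fit did not use this pairing, so its spread includes differences between replicate numbers, and the replicate block was run as an alternative. The scripts were tested on simulated data.

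Transcript features came from canonical transcripts of GENCODE version 44 on GRCh38, another build than the counts, matched by symbol or by RefSeq synonym (11785 of 12032 tested genes). Roles and pathway lists were written by hand. The genes named are, in each role, those with the lowest and highest slope, the 4 RAN cycle genes and the most familiar members, with every library shown for the 3 lowest, the 3 highest and RAN. Other genes were named after their values were seen. The genes and lists were chosen with earlier results of these data known. Alternatives were 3 other scalings, DESeq2 1.42.0, 2 count filters, a replicate block, left-out libraries and fewer times.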

Additional observations from a re-analysis of the deposited data

How the results depend on the processing

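With library totals the slope counts were 19 negative and 10 positive, beside 39.1% and 18.7% of all tested genes, the same counts held at 4 h against 0 h, and the median slope of the tested genes was −0.019. With GAPDH plus ACTB they were 42 and 0 in both tests and the median was −0.12. They moved the median of all tested genes by −0.039 and −0.14. Library totals ended the positive slope calls of RAN, RCC1, NUP107, NUP93, NUP205, IPO11, IPO13 and TNPO3. The squared term called 1 gene negative with library totals, DESeq2 size factors, GAPDH plus ACTB or the filter of at least 1 count, and 2 with the DESeq2 test, which also called 1 gene higher at 1 h. With 0, 1 and 2 h alone, 3 slopes were negative and 11 positive, the median was 0.046 and 13 other pathway genes passed instead of 32. That fit has fewer samples, and its share of all tested genes was not counted.

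With the replicate block, 13 slopes were negative and 24 positive, 14 and 24 genes passed at 4 h against 0 h, 3 and 3 at 1 h against 0 h, and 3 genes had a negative squared term. The shares of all tested genes called with the block were not counted, so these counts have no background beside them. The block added 10 slopes, those of NUP155, XPO6, XPO1 and KPNA4 (negative) and of KPNB1, CSE1L, NUP133, XPO4, XPO7 and XPOT (positive), and ended no slope call of the 49 genes.

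Among the chosen genes, these slopes turned negative with GAPDH plus ACTB: NUP107 −0.087, NUP188 −0.032, NUP88 −0.12, KPNA1 −0.13, XPO5 −0.052 and RAN −0.085. So did those of RANBP1 (−0.027), RANGAP1 (−0.050), RCC1 (−0.085), KPNB1 (−0.12), CSE1L (−0.11), IPO4 (−0.0053), NUTF2 (−0.015) and THOC7 (−0.022). Outside the chosen genes but within the symbol rule, the same happened to IPO5 (−0.056), IPO9 (−0.0309), TNPO1 (−0.0405), IPO11 (−0.0773) and IPO13 (−0.0932). It also happened to TNPO3 (−0.0981), NUP93 (−0.0986), NUP205 (−0.104), NUP133 (−0.104), NUP85 (−0.115), XPO4 (−0.0895), XPO7 (−0.114), XPOT (−0.106) and IPO7 (−0.127). No slope past the threshold among the chosen genes turned under any other alternative run. Outside them, the slope of NUP205 was −0.0055 with library totals (edgeR adjusted p = 0.754). Slopes not past the threshold that turned negative with library totals included NUP133 (−0.0048), NUP85 (−0.0162), XPO7 (−0.015) and XPOT (−0.00686). Of the chosen genes not past it, these changed sign and did not pass: with library totals NUP88 (−0.0201), KPNA1 (−0.0274), KPNB1 (−0.0191) and CSE1L (−0.00999), with 0, 1 and 2 h NUP155 (0.0132), TPR (0.0702), KPNA1 (−0.0018), XPO6 (0.00666) and XPO1 (0.0163), and with 1, 2 and 4 h NUP37 (0.00873). KPNA1 did so without replicate 1 (−6.94e-05) and without 4 h replicate 2 (−0.00106), IPO8 without the latter (0.000644), and NUP37 without replicate 3 (0.00135) or 0 h replicate 3 (0.00363).

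Leaving out a replicate or a library gave 8 to 11 negative and 13 to 17 positive slopes, 8 to 11 and 11 to 17 calls at 4 h, medians from 0.016 to 0.029, and 26 to 34 other pathway genes. It gave 0 to 1 negative squared terms, 1 of them without 4 h replicate 1 and 1 without 2 h replicate 3. Shares of all tested genes were not counted for these fits. The slopes of NUP153, NUP62 and NUP50 stayed negative and past the threshold in all 24 alternatives. KPNA5 had the fewest counts of the tested genes, 118.2 on average.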
